A study of Mus musculus with 12 samples.

Results

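The sites described here are the 4514 poly(A) site clusters whose listed polyadenylation signal has the letters AAGAAA. They were chosen by their letters alone: the hexamer differs from the canonical signal, the most frequent one in the catalogue, only at base 3, where it has G in place of T. They made up 3.49% of the 129401 clusters with a listed hexamer, and 145179 clusters were held in all, of which 80 mitochondrial ones were left out (4 of those were listed with AAGAAA). The hexamer ranked 5 by frequency among 36 hexamers, and it contains only purines.

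The catalogue came from mouse embryonic stem cells, derived from the V6.5 line, with a conditional knockout (CKO) of Exosc3, a core subunit of the RNA exosome. All 12 libraries carried this knockout allele and fell into 6 groups of 2. One group had been without doxycycline for 3 days (dox-, Exosc3-), and its counterpart had been kept in doxycycline at 0.1 μg/ml (dox+, Exosc3+). The other 4 groups were dox- or dox+ cells of the 2-day experiment, each nucleofected with U1 AMO or with Scr AMO at 15 μM and collected 8 hours later. U1 AMO is an antisense morpholino oligonucleotide against the U1 small nuclear RNA, and the labels do not spell out Scr. The CKO cells were clones, but the sources used here do not say how many clones the libraries came from. The file had 7 columns, of which 0 held a value per library, so no site could be set against doxycycline or AMO treatment, the depth per library is unknown, and the labelled cell type could not be checked against its markers.

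Most mammalian messenger RNAs are cleaved and polyadenylated a short way downstream of a hexamer signal. The cleavage and polyadenylation specificity factor reads it through its subunits CPSF30 and WDR33. In structures of the human complex the uracil at the third base, written T here, pairs with the last base of the hexamer, and the G-containing hexamer lacks that uracil. AAGAAA is one of the weaker variants used at natural sites. The hexamers below are shown because they differ at the base in question or because the catalogue gave them precedence. Bases that differ from the canonical signal are in capitals, from 5′ to 3′.

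Canonical signal: aataaa
Signal with G at base 3: aaGaaa
Signal with A at base 3: aaAaaa
Signal with C at base 3: aaCaaa
Signal given precedence, base 2: aTtaaa
Signal given precedence, base 1: Tataaa
Signal given precedence, base 2 with G: aGtaaa

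At base 3, T was listed for 65222 clusters, G for 4514, A for 1511 and C for 311. The other hexamers with 5 A and 1 G were far less frequent, with 650 clusters for AAAAGA, 422 for AAAGAA and 241 for AAAAAG. These counts depend on the order in which the hexamers were looked up, which the catalogue itself shows. Neighbouring clusters on a strand often lie so close that the hexamer listed for one also lies within 6 to 100 nt upstream of the other, the range of distances in the catalogue. In 81 such cases a cluster with AAGAAA in range was listed with another of 4 hexamers: AATAAA in 33 cases, ATTAAA in 21, TATAAA in 15 and AGTAAA in 12. In the opposite direction, 0 clusters listed with AAGAAA had any of these 4 in range. For 21 other hexamers the order was reversed: AAGAAA was listed in all 68 cases in which one of them lay in range, and 0 of their clusters had AAGAAA in range. Over the whole catalogue, 267 pairs of hexamers were ordered in 1 direction only and 0 pairs in both. Through hexamers in between, AAGAAA came before 29 of the other 35 hexamers, all-A included, after 4, and its order against 2 rare ones was not settled.

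The plus-strand cluster chr1:24820408-24820417 (mm9) gives an example, picked after its values were seen. It was listed with AATAAA at 25 nt. The cluster upstream of it, a single position at 24820356, was listed with AAGAAA at 24 nt, and that AAGAAA was also in range of the downstream cluster but was not listed for it. Each cluster has a single listed hexamer. In the pairs seen, no cluster listed with AAGAAA had any of the 4 hexamers with precedence in range. Whether that holds for all 4514 was not tested, because it needs the genome sequence, which was not used here. Where a pair of AAGAAA clusters had the same stretch in range, their hexamers could be the same one in 215 of 222 cases. In the other 7 the nearer AAGAAA was listed, and the farther one in 0. In all, 366 of the 4514 clusters (8.11%) may share their AAGAAA with another cluster of the set, and these are not independent sites.

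The distances of AAGAAA from its clusters formed a narrow peak close to the cluster, a broad peak at the usual distance of a poly(A) signal and a level tail. At 7 to 12 nt lay 828 clusters, 18.3% of the set. At 15 to 30 nt lay 1470 clusters (32.6%), at 31 to 60 nt 979 (21.7%) and at 61 to 100 nt 1124 (24.9%). The most frequent distance was 10 nt with 188 clusters, and the broad peak had its top at 19 nt with 134 clusters.

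The near peak had sharp edges. At 6 nt, the shortest distance in the catalogue, there were 7 clusters and at 7 nt 99. The count also rose there with AATAAA (9 to 267) and the all-A hexamer (46 to 144). With other hexamers with 5 A, AATAAA not counted, it rose from 61 to 193, so the lower edge was not particular to AAGAAA. At 12 nt there were 136 AAGAAA clusters, and at 13 nt 49. The count then rose again to 75 at 15 nt. The mean count per nt at 7 to 12 nt was 2.60 times that at 13 to 14 nt. That ratio was 4.50 for TAAAAA, 3.18 for AAAAAC and 3.14 for AAAAAT, each on few clusters. It was 1.65 for the all-A hexamer, 1.27 for AATAAA and 0.889 for AACAAA. A drop of this size was therefore not seen with AAGAAA alone. In the tail the AAGAAA count was level, at 28.1 ± 5.12 clusters per nt (SD over 40 distances). The counting error of a count of that size, its square root, is 5.3. Taken over all 95 distances, that tail level would come to 59.1% of the set, against 8.16% for AATAAA, 13.1% for ATTAAA, 26.1% for AGTAAA and 35.5% for TATAAA. Values for other hexamers with 5 A lay on both sides of that for AAGAAA, from 33.9% for AAAAAC to 83.9% for AAAGAA. This range leaves out AATAAA and the rare ATAAAA, which had 14 clusters. AACAAA had 63.4% and the all-A hexamer 29.6%. Above the tail level stood 659.4 clusters at 7 to 12 nt and 1020.4 at 15 to 30 nt. The tail level is a description of these counts and no measure of how many sites use the hexamer.

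**Figure D1:**
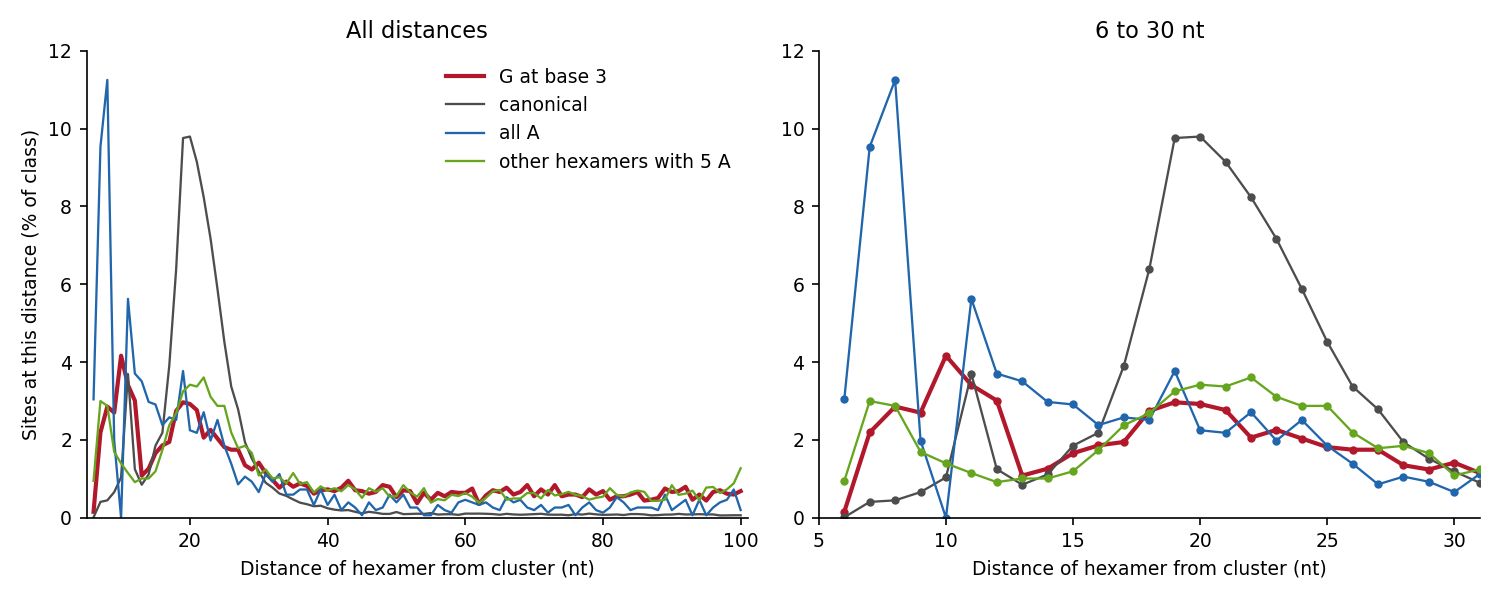
Share of each class of clusters (%) by distance (nt) of the listed hexamer, at all distances (left) and up to 30 nt (right), with a line each for G at base 3, the canonical signal, the all-A hexamer and other hexamers with 5 A. The class with G at base 3 reaches 4.16% at 10 nt, drops to 1.09% at 13 nt and has a broad top of 2.97% at 19 nt, where the canonical signal reaches 9.76%.

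Fewer AAGAAA than AATAAA clusters had their hexamer at 15 to 30 nt. The share was 32.6% for AAGAAA and 79.7% for AATAAA, a difference of -47.04 percentage points ± 3.94 (SD over 19 autosomes) with the same sign on 19 of 19 (adjusted p = 3.00e-05, 2-sided sign-flip permutation test over autosomes). Against other hexamers with 5 A, AATAAA not counted, the share was also lower, 32.6% and 39.1% (difference -5.77 percentage points ± 4.88, adjusted p = 0.000453, permutation test, lower on 17 of 19 autosomes). In the wider window of 10 to 35 nt, which takes in part of the near peak, that difference was 0.936 (adjusted p = 0.521, permutation test). AAGAAA and the all-A hexamer both had 32.6% at 15 to 30 nt (difference 0.42 ± 5.53, adjusted p = 0.838, permutation test). When distances under 13 nt were left out this difference was -9.13 percentage points (adjusted p = 2.86e-05, permutation test), since a larger share of the all-A sites lay at such short distances. Autosomes are not biological replicates, so these p-values measure how evenly a difference held over the genome. All 24 comparisons were adjusted together by Benjamini-Hochberg, and the spread between cultures is in no p-value here.

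Among the 34 hexamers with 200 clusters or more, AAGAAA had the highest share at 7 to 12 nt after AAAAAC, with 51.4%, and AAAAAA, with 32.1%. AAAAAT followed with the same rounded value as AAGAAA, 18.3%. AAAAAG had 14.5%, AAAACA 13.3%, and AACAAA, with C in place of G at base 3, 5.14%. The 12 other hexamers with 5 or more A, AATAAA not counted, had a median of 9.07%, and the 20 hexamers with fewer A a median of 4.42% and at most 9.89%. The hexamers with the largest shares so close to the cluster were therefore A-rich, but G at base 3 stood above most A-rich hexamers. The window of 7 to 12 nt was set after the profile of AAGAAA had been seen, so these shares are given without a test.

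**Figure D2:**
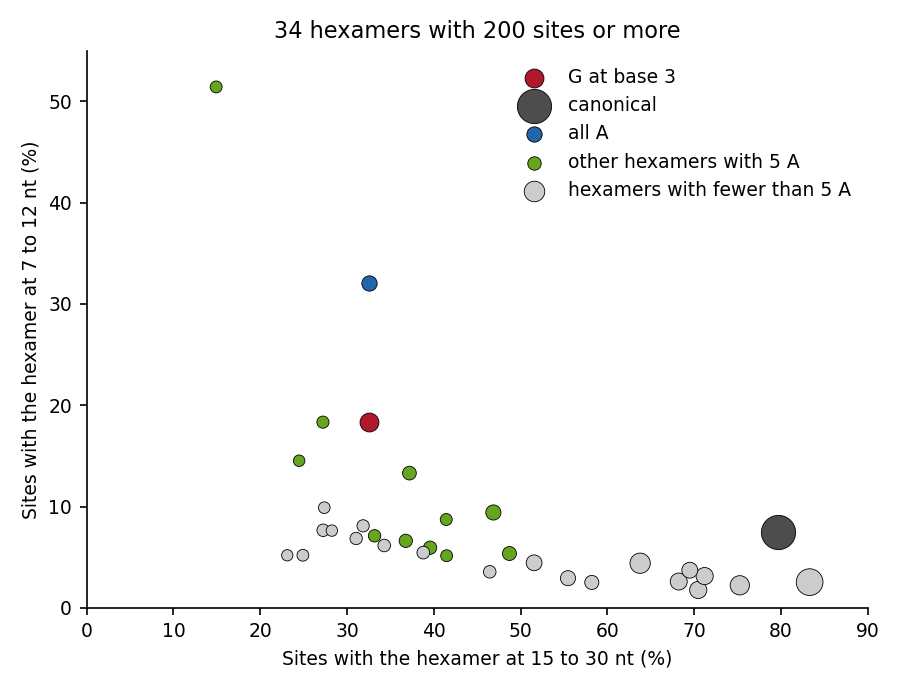
Each point is 1 of the 34 hexamers with 200 clusters or more, with the share of its clusters at 15 to 30 nt on the x axis and at 7 to 12 nt on the y axis (both %), coloured by class, and a larger point for more clusters. G at base 3 lies at 32.6% and 18.3%, above all hexamers with fewer than 5 A, and the canonical signal lies at 79.7% and 7.50%.

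Clusters of the near peak differed from the other AAGAAA clusters in width and surroundings. Of the 828 clusters at 7 to 12 nt, 38.2% were 1 nt wide (95% Wilson interval 34.9 to 41.5%), against 16.3% of the 1470 at 15 to 30 nt (interval 14.5 to 18.2%). Their median width was 2 nt (quartiles 1 and 8 nt), against 9 nt at 15 to 30 nt (quartiles 2 and 21 nt). Lone sites, those with no other site of their strand within 2 kb, made up 60.1% of the near clusters (interval 56.8 to 63.4%) and 17.9% of those at 15 to 30 nt (interval 16.0 to 19.9%). The difference in the share of lone sites was 41.3 percentage points ± 8.82 (SD) and was positive on 19 of 19 autosomes, as was that in the share of clusters 1 nt wide, 22.9 ± 8.30. The gap to the nearest site had a median of 6862 nt for the near clusters and 193.5 nt for those at 15 to 30 nt.

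The change came within 1 nt of distance. Of the 136 clusters with AAGAAA at 12 nt, 66.9% were lone, against 12.2% of the 49 at 13 nt. At 13 nt 14.3% were 1 nt wide, and at 12 nt 50%. At 7 nt 74.7% were lone, the highest share among the 6 distances of the near peak, and at 8 nt 48.1%, the lowest. From 13 nt on, the share of lone sites stayed between 15.1 and 19.8% in each of the bands 13 to 14, 15 to 30, 31 to 60 and 61 to 100 nt.

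Other classes also had more lone sites at 7 to 12 nt than farther away, with a smaller drop at 13 nt in these values, which was not tested. The share of lone sites at 7 to 12 nt was 60.1% for AAGAAA, 67.4% for AATAAA (interval 66.1 to 68.7%), 75.7% for the all-A hexamer (interval 71.7 to 79.3%) and 44.4% for other hexamers with 5 A (interval 40.8 to 48.0%). The AATAAA value rests largely on a single distance. Of its 4893 clusters in this window, 2409 lay at 11 nt, and 75.5% of those were lone. At 7, 8, 9, 10 and 12 nt, 55.1 to 62.2% of AATAAA clusters were lone, near the AAGAAA value. At 13 to 14 nt it was 15.1% for AAGAAA (interval 9.51 to 23.1%), while AATAAA had 53.5%, the all-A hexamer 67.3% and other hexamers with 5 A 26.9%. Narrow clusters were more frequent in the A-rich classes than with AATAAA: at 7 to 12 nt, 38.2% of AAGAAA, 51.8% of all-A and 37.2% of other 5-A clusters were 1 nt wide, but 12.2% of AATAAA clusters (interval 11.3 to 13.1%). Single A-rich hexamers ran from 15.4% for AAAATA and 18.8% for AACAAA to 64.2% for AAAAAC. The low values rest on few clusters, a mean of 6.5 per nt for AAAATA and 2.67 for AACAAA, against 27 for AAAAAC. The 12 other hexamers with 5 or more A, AATAAA not counted, had a median of 33.2%. With this kind of assay, an oligo-dT primer that anneals inside A-rich RNA also gives an apparent 3′ end. The part of such priming in these clusters was not tested, because it needs the genome sequence beside each cluster, which was not used here.

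**Figure D3:**
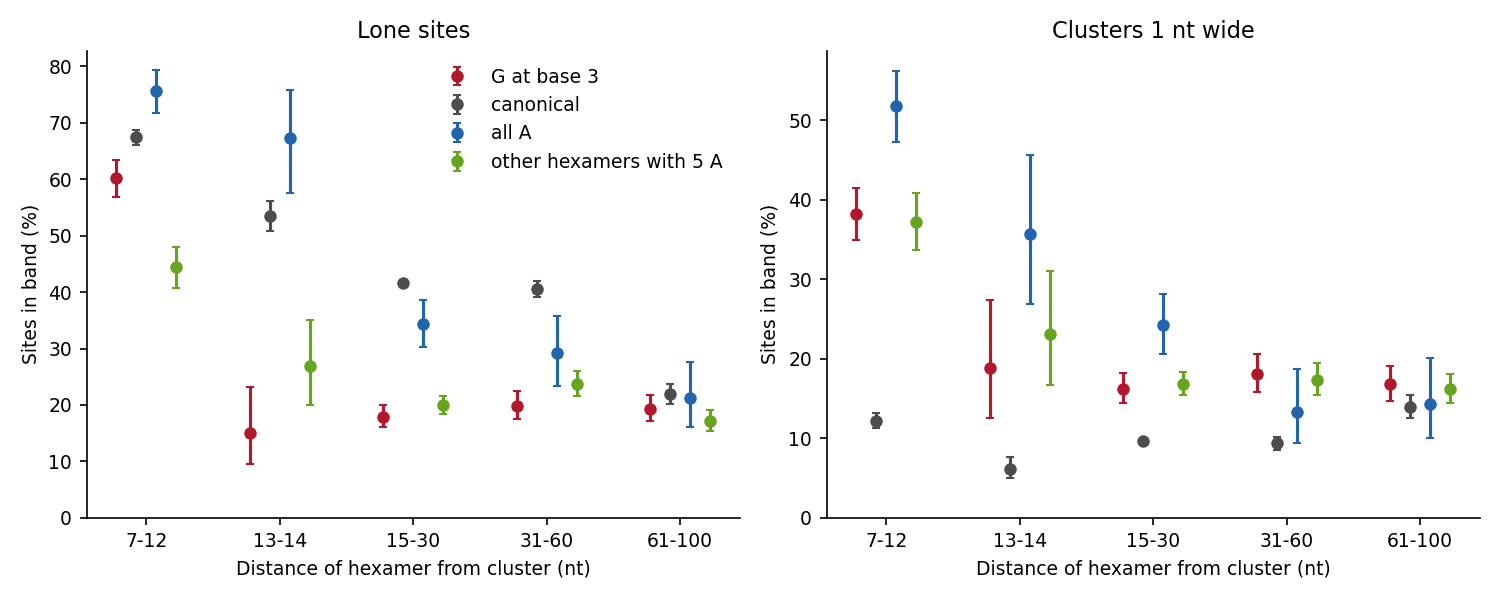
Share of lone sites (left, no other site of the strand within 2 kb) and of clusters 1 nt wide (right), in % of the clusters of each class, in 5 bands of hexamer distance in nt, with 95% Wilson intervals as bars. For G at base 3 the share of lone sites is 60.1% at 7 to 12 nt and 15.1 to 19.8% in the other bands, and the share 1 nt wide is 38.2% and 16.3 to 18.9%.

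At the usual distance and in the tail, no difference between AAGAAA clusters passed the test in the 4 measures compared. The share with a neighbour on the strand within 1 kb was 74.4% at 15 to 30 nt and 73.9% at 61 to 100 nt (difference -1.40 percentage points ± 11.3, SD over 19 autosomes, adjusted p = 0.749, permutation test). Lone sites made up 17.9 and 19.3% (difference -0.466 ± 8.69, adjusted p = 0.838, permutation test). The mean log2 width was 2.92 at 15 to 30 nt and 3.07 at 61 to 100 nt (difference -0.098 ± 0.36, lower on 14 of 19 autosomes, adjusted p = 0.355, permutation test). Of the clusters at an end of a run, 32.7% of those with AAGAAA at 15 to 30 nt and 37.3% of those at 61 to 100 nt stood at the downstream end (difference -2.40 ± 20.2, adjusted p = 0.749, permutation test). This last difference had opposite signs on the strands: it was -17.4 percentage points on the plus strand (adjusted p = 0.00648) and 8.47 on the minus strand (adjusted p = 0.412, permutation tests). A p-value that misses the threshold does not show that the 2 bands were alike.

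Compared with the other classes, AAGAAA clusters lay in groups of sites more often than AATAAA and all-A clusters. A neighbour on the same strand within 1 kb was present for 66.1% of AAGAAA clusters and 46.2% of AATAAA clusters (difference 20.2 percentage points ± 2.93, SD, higher on 19 of 19 autosomes, permutation test, adjusted p = 3.00e-05). The all-A clusters had 43.3% (difference 23.9 ± 9.56, higher on 19 of 19, adjusted p = 3.00e-05, permutation test). Lone sites made up 26.4% of AAGAAA, 43.1% of AATAAA and 48.8% of all-A clusters. The difference in lone sites from AATAAA was -16.9 percentage points ± 3.10, and -23.6 ± 5.21 when both had their hexamer at 15 to 30 nt.

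Other hexamers with 5 A were close to AAGAAA. They had a neighbour within 1 kb in 70.0% of cases, and the difference of AAGAAA from them was -3.59 percentage points ± 3.41 (adjusted p = 0.000888, permutation test, lower on 15 of 19 autosomes). Lone sites were more frequent with AAGAAA, 26.4% against 23.1% (difference 2.94 ± 3.12, higher on 15 of 19, adjusted p = 0.00142, permutation test). Without distances under 13 nt both differences changed sign and missed the threshold, at 0.921 (adjusted p = 0.515) and -1.71 (adjusted p = 0.0915, permutation tests), so both depended on the clusters with the closest hexamers. On the minus strand alone they were -2.86 and 1.98 percentage points and missed the threshold too.

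The place of AAGAAA within runs, sites of a strand joined by gaps of at most 2 kb, was upstream more often than downstream. Of the 4514 clusters, 924 (20.5%) were the most upstream site of a run, 1913 (42.4%) lay in the middle, 487 (10.8%) were the most downstream site and 1190 (26.4%) were lone. Among the clusters at either end of a run, 34.5% of AAGAAA and 59.8% of AATAAA clusters stood at the downstream end (difference -24.9 percentage points ± 6.75, lower on 19 of 19 autosomes, permutation test, adjusted p = 3.00e-05). The all-A clusters had 39.0% there (difference -6.76 ± 13.2, adjusted p = 0.0638) and other 5-A clusters 37.5% (difference -2.45 ± 7.21, adjusted p = 0.234, permutation tests). Among the 2837 AAGAAA clusters with a site farther downstream in their run, the run ended in an AATAAA site in 48.9% of cases (interval 47.1 to 50.7%), against 49.4% for other 5-A clusters (interval 47.9 to 50.9%). For AATAAA clusters with a site farther downstream it was 57.2% (interval 56.5 to 57.8%). These shares count a run once for each such cluster in it. With each of the 25530 runs counted once, 53.9% ended in AATAAA, which is not directly comparable.

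**Figure D4:**
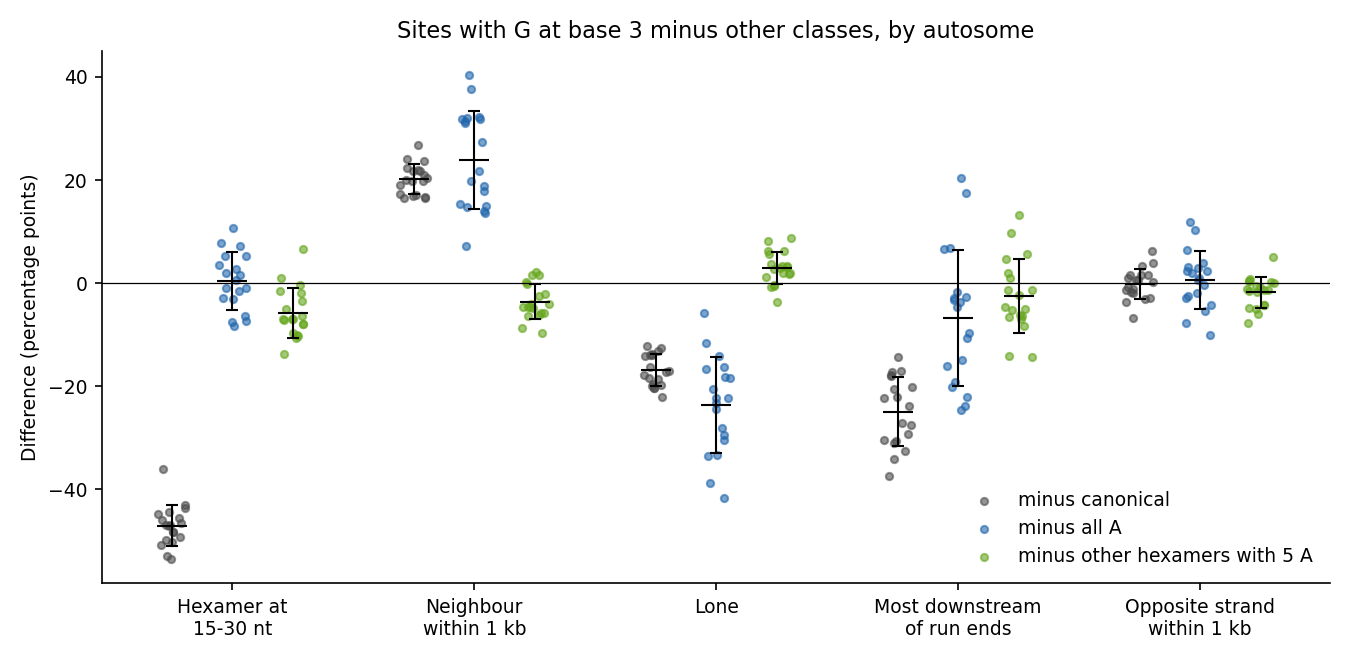
Difference in percentage points between clusters with G at base 3 and each of 3 other classes, for 5 shares, with 1 point per autosome (19 each) and the mean ± SD in black. All 19 points lie below 0 for the share at 15 to 30 nt, lone sites and downstream run ends against the canonical signal. Against other hexamers with 5 A, 17 of 19 lie below 0 for the share at 15 to 30 nt, and against the all-A hexamer 9 of 19.

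AAGAAA sites lay in runs of many sites, as did those of the A-rich classes. For clusters with a site farther downstream in their run, the median run held 6 sites with AAGAAA, 6 with other 5-A hexamers, 5 with all-A and 4 with AATAAA. A member was found in 2775 of the 25530 runs (10.9%), with a median of 5 sites in such runs and 3 in all runs, and a run of more sites has more places for one. In 424 runs there were 2 or more AAGAAA clusters, which together held 973 of the 3324 clusters in runs (29.3%). The run with the most held 12 among its 76 sites, at chr1:88239954-88254802 (minus strand). The AAGAAA distances there ran from 9 to 90 nt, and 11 of the 12 lay beyond 12 nt. The next had 7 of 15 sites, at chr19:60844646-60850748 (minus), at 22 to 84 nt. In 3 runs there were 5, chr16:11193019-11196561 (minus, 10 sites), chr18:37800133-37802829 (minus, 14 sites) and chr2:71734439-71741923 (plus, 16 sites). These are counts of clusters, and some clusters of a run may share their AAGAAA. In the chr2 run, for example, those at 71739305-71739318 (15 nt) and 71739354-71739371 (67 nt) may do so. In the chr1 run of 76 sites, so may those at 88249729-88249734 (72 nt) and 88249785-88249790 (16 nt). The same holds there for those at 88253794-88253870 (62 nt) and 88253905-88253915 (24 nt). Genes at these positions were not analysed here, for want of an annotation of the build.

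Within 100 nt, the next site downstream of an AAGAAA cluster was another AAGAAA cluster in 239 of 941 cases (25.4%) and an AATAAA cluster in 178 (18.9%). Other classes also had neighbours of their own class. The next downstream site within 100 nt was of the same class in 66.4% of cases for AATAAA, 14.4% for all-A and 21.6% for other 5-A clusters. It was an AATAAA cluster in 19.9% of cases for all-A and 18.2% for other 5-A clusters. Upstream within 100 nt it was AAGAAA in 239 of 864 cases (27.7%), AATAAA in 98 (11.3%) and a cluster with no hexamer in 183 (21.2%). A site that follows another closely can be listed with the same hexamer, and AATAAA had precedence in every case seen. How far the order of lookup moves these shares was not tested. An AATAAA cluster within 100 nt on either side was present for 6.54% of AAGAAA, 3.71% of all-A and 6.37% of other 5-A clusters. The difference from all-A clusters was 2.68 percentage points ± 2.89 (higher on 16 of 19 autosomes, adjusted p = 0.00152), and that from other 5-A clusters was -0.141 ± 2.88 (adjusted p = 0.838, permutation tests). The first missed the threshold with a distance of 50 nt, at 0.608 (adjusted p = 0.372, permutation test).

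AAGAAA clusters were narrower than AATAAA clusters. Their median was 8 nt wide, with quartiles of 2 and 21 nt, against 10 nt for AATAAA (quartiles 4 and 21 nt), 4 nt for all-A and 9 nt for other 5-A clusters. On the log2 scale the mean was 2.76 for AAGAAA and 3.12 for AATAAA (difference -0.35 ± 0.16, lower on 19 of 19 autosomes, permutation test, adjusted p = 3.00e-05). Clusters 1 nt wide made up 20.9% of AAGAAA clusters (interval 19.7 to 22.1%) and 9.94% of AATAAA clusters (interval 9.71 to 10.2%). With these left out the log2 difference was 0.014 (adjusted p = 0.848, permutation test). That alternative removes clusters by their width, the measure compared, so it is no separate test of the difference. All-A clusters were narrower still, with a mean of 2.16 (difference 0.65 ± 0.34, higher for AAGAAA on 19 of 19, adjusted p = 3.00e-05, permutation test). The difference from other 5-A clusters was -0.10 ± 0.15 (adjusted p = 0.017, permutation test), and 0.029 (adjusted p = 0.541) without distances under 13 nt.

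The 3 widest AAGAAA clusters were chr4:150052907-150053210 (plus strand), chr8:72425582-72425865 (minus) and chr13:23831247-23831505 (plus), in mm9. They were 304, 284 and 259 nt wide, had AAGAAA listed at 15, 91 and 65 nt, and were middle sites of runs of 6, 4 and 11 sites. Starts were taken as counted from 0 in the file and are given here counted from 1.

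Sites on the opposite strand did not differ in frequency beyond the spread between AAGAAA and AATAAA clusters. One lay within 1 kb of 13.2% of both classes (difference -0.142 percentage points ± 2.97, adjusted p = 0.838, permutation test), of 12.2% of all-A clusters (difference 0.635 ± 5.57, adjusted p = 0.749) and of 14.9% of other 5-A clusters (difference -1.77 ± 2.98, lower on 14 of 19 autosomes, adjusted p = 0.0301, permutation tests). The last missed the threshold on the minus strand alone, at -0.542 (adjusted p = 0.682, permutation test). Clusters of opposite strands overlapped for 87 AAGAAA clusters (1.93%, interval 1.57 to 2.37%) and 1200 AATAAA clusters (1.84%).

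The set held 2253 clusters on the plus and 2261 on the minus strand. On autosomes its share of clusters with a hexamer was 3.49% ± 0.337 (SD, n = 19), lowest on chromosome 17 with 2.77% (160 of 5778 clusters, interval 2.38 to 3.22%) and highest on chromosome 18 with 4.27% (170 of 3981, interval 3.69 to 4.94%). The share of the set at 7 to 12 nt ran from 12.4 to 25.9% over autosomes, with a median of 18.0%. On chromosome X, which held 140 AAGAAA clusters, it was 29.3% and lone sites made up 39.3%. Both values were above the range of the autosomes, where lone sites ran from 21.3 to 30.7%. The 29.3% rests on 41 clusters, and whether X differed from the autosomes beyond counting error was not tested. On the unplaced Y sequence of the build (Y_random), 13 of 55 hexamer sites were listed with AAGAAA (23.6%, interval 14.4 to 36.3%). All 13 were lone, and 9 had the hexamer at 7 to 12 nt (69.2%). On chromosome Y itself 0 of 20 hexamer sites were listed with AAGAAA, which leaves a share of up to 16.1% within the Wilson interval.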

How the data were processed

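The authors deposited, per the file headers, 1 table for the whole series with positions, strand, hexamer and hexamer distance in nt of each cluster. Polyadenylated RNA was sequenced from the tail by 2P-seq, per the labels' protocols. Trimmomatic, STAR and bedtools (no versions) and the mm9 build are named in the submitters' processing notes. Clustering rules, filters and the point from which distances were counted are not given in the sources used here.

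The class, its comparison classes and the lists were chosen with earlier results of these data known. No gene was named. The sites named are the 3 widest of the class and the runs with the 3 highest numbers of them. The bands at 7 to 12 nt and at 13 nt or more were set after the profile had been seen. A hexamer was taken as in range of a neighbouring cluster only where this held for every position of both clusters. Gaps ran between cluster edges. Per-autosome differences (class minus comparison class) were tested with 2-sided sign-flip permutation tests of 100000 resamples (smallest p 1e-05, seed 1), with Benjamini-Hochberg adjustment over 24 comparisons and a threshold of 0.05. Within each alternative the p-values were adjusted in the same way. The 95% Wilson intervals are for counting error only and take sites as independent, which neighbours are not. The measures and the test were tested on simulated data. Software was scipy 1.17.1, pandas 2.3.3 and numpy 2.4.6 under Python 3.11.15, with matplotlib 3.10.9 for plots.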

Additional observations from a re-analysis of the deposited data

How the results depend on the processing

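No paired analysis was possible because the file holds no value per library, and for the same reason no replicate could be left out. Of the 24 comparisons, 14 passed the threshold. Under 8 alternatives, 117 of 166 values kept their direction and their side of the threshold. The other 49 follow, as AAGAAA minus the class named, in percentage points unless log2 is given, with p-values from the permutation test over autosomes. The causes were not tested beyond what each alternative leaves out.

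More of them concern other hexamers with 5 A than any other class. On the minus strand alone 4 differences from them missed the threshold: log2 width -0.050, a neighbour within 1 kb -2.86, lone sites 1.98 and opposite-strand sites -0.542. Log2 width also missed it among clusters up to 50 nt wide (-0.071) and wider than 1 nt (-0.077), and the share 1 nt wide in its place differed by 1.08. Opposite-strand sites missed it within 0.5 kb (-1.30) and among lone sites and most downstream sites of runs (-2.20). For AAGAAA that last set held 1190 lone and 487 most downstream clusters. The share at 10 to 35 nt turned, at 0.936. With distances of 13 nt or more, an alternative chosen after seeing the data, log2 width (0.029), neighbours (0.921) and lone sites (-1.71) turned, and opposite-strand sites (-1.59) missed the threshold. With the hexamer at 15 to 30 nt in both classes, likewise chosen after seeing the data, the same 3 turned, at 0.11, 0.794 and -2.04, and opposite-strand sites stood at -1.28.

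Against AATAAA, log2 width turned among clusters wider than 1 nt (0.014). Opposite-strand sites against AATAAA passed the threshold among lone and most downstream sites (-2.70). Against all-A, the share at 15 to 30 nt turned at distances of 13 nt or more (-9.13), and downstream run ends passed among clusters up to 50 nt wide (-7.99). An AATAAA cluster nearby missed the threshold within 50 nt (0.608), among clusters wider than 1 nt (2.11) and at 13 nt or more (1.70). Within AAGAAA, 10 to 35 nt minus 51 to 100 nt takes in near clusters, and there log2 width (-0.32) and neighbours (-9.72) passed and lone sites turned (8.01). Downstream run ends at 15 to 30 nt minus 61 to 100 nt passed on the plus strand (-17.4) and turned on the minus strand (8.47).

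In 20 values, that minus-strand one included, the sign changed while neither value passed the threshold, so those differences have no settled direction. The share at 15 to 30 nt against all-A was -0.366 on the plus strand and -2.13 at 10 to 35 nt. Among lone and most downstream sites it was -0.339. Opposite-strand sites against all-A stood at -1.31 on the plus strand and -0.476 among lone and most downstream sites. These opposite-strand shares stood at -0.761 at 13 nt or more and -0.319 with both at 15 to 30 nt. Against AATAAA they stood at 0.078 on the minus strand, 0.342 at 13 nt or more and 0.504 with both at 15 to 30 nt. An AATAAA cluster nearby, against other 5-A, was 0.758 on the plus strand, 0.437 up to 50 nt wide, 0.122 wider than 1 nt, 0.132 at 13 nt or more and 0.996 with both at 15 to 30 nt. Downstream run ends against other 5-A were 0.55 with both at 15 to 30 nt. Within AAGAAA, neighbours were 1.43 on the minus strand, log2 width 0.054 up to 50 nt wide and lone sites 0.431 wider than 1 nt. Depth per library is unknown, so it cannot be said which of the sites rest on few reads.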
